A study of Arabidopsis thaliana with 4 samples.

Results

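The alternative respiratory pathway of leaf mitochondria was read through 5 probe sets of an Affymetrix ATH1 array, out of 22810 on the array. A probe set is the group of short probes that together give 1 signal for a transcript. The members were chosen by identifier: 258452_at for AOX1a (AT3G22370), 260706_at for AOX1d (AT1G32350), 255259_at for NDB2 (AT4G05020), 256057_at for NDA1 (AT1G07180) and 266835_at for NDA2 (AT2G29990). They comprise 2 alternative oxidases and 3 alternative NAD(P)H dehydrogenases, and all 5 loci were found under these symbols in the RefSeq gene table.

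RNA came from Arabidopsis rosette leaves of the antisense line AS12 and of the wild type, with 2 arrays per genotype. AS12 is Col-0 carrying an AOX1a antisense construct driven by the cauliflower mosaic virus 35S promoter, which is active in most tissues; it is a single transformed line, so effects of AOX1a and of that line cannot be told apart. The plants of both genotypes shared 1 growth regime: a potting mix without soil or fertilizer, 23 °C, 350 µmol photons per square metre per second and a 14 h day. Leaves of the third or the fourth pair were collected 21 days after sowing, shortly before noon. RNA of 9 and 8 plants was pooled for antisense 1 and antisense 2, against 7 and 9 plants for wild type 1 and wild type 2. Nothing in the labels says how the plants of a genotype were divided into pools, so p-values measure the spread between these pools, which may be partly technical. Leaf marker genes were not read, because no table used here ties their probe sets to genes.

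Plant mitochondria can pass electrons from NADH and NADPH to oxygen without pumping protons at every step. Alternative NAD(P)H dehydrogenases feed electrons into ubiquinone beside complex I, and alternative oxidase takes them from ubiquinol to oxygen beside the cytochrome pathway. In leaves this route is known for holding the electron transport chain oxidised when the cytochrome pathway is restricted, and AOX1a and NDB2 are classical transcripts of mitochondrial stress.

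The 4 arrays were similar in the share of probe sets called present and in background. By the deposited quality sheet, 55.5% to 57.3% of probe sets were called present, and backgrounds lay between 47.93 and 53.16. A ratio of 3'-end to 5'-end probe signal, a measure that rises with RNA degradation, could be formed for actin, GAPDH and ubiquitin by 2 probe designs each. Of these 6 ratios 1 separated the genotypes: the second GAPDH design read 1.17 and 1.28 on the antisense-labelled arrays, against 1.08 and 1.12 on the wild-type arrays. Some ratios were less even between arrays. The first actin design ran from 4.11 in antisense 2 to 5.40 in antisense 1. The first ubiquitin design ran from 3.16 in wild type 2 to 4.68 in wild type 1.

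AOX1a, the transcript that the construct targets and the main alternative oxidase of leaves, gave a higher signal on the arrays labelled antisense. It read 5163.8 in antisense 1 and 4827.3 in antisense 2, against 1022.7 in wild type 1 and 2115.3 in wild type 2 (deposited signal, linear scale). Both antisense-labelled arrays lay above both wild-type arrays, and even the closest pair, antisense 2 and wild type 2, was 2.28-fold apart. The direction is the opposite of the lowering for which antisense constructs are made. The sources used here do not say which stretch or strand of AOX1a the construct carries or the probe set reads. The signal is therefore a reading of this probe set, and it does not check that the construct worked. The genotypes are called by their array labels for that reason.

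The size of this difference was large, and its error was wide. AOX1a averaged 4996 ± 238 on the antisense-labelled arrays and 1569 ± 773 on the wild-type arrays (signal, SD, n = 2 each), which is 3.39-fold higher on the mean log2 scale. The log2 difference was 1.76 with a 95% interval of 0.94 to 2.58, or 1.92-fold to 5.99-fold. In limma's fit over 13648 probe sets the unadjusted p was 0.0018 and the adjusted p (Benjamini-Hochberg) was 1.0. The difference thus failed the correction, although all 4 pairs of an antisense-labelled and a wild-type array went the same way, at 5.05-fold, 2.44-fold, 4.72-fold and 2.28-fold. Over 15 alternative settings the adjusted p in limma ran from 0.032 to 1.0. It passed 0.05 in 1 of them, a block that paired wild type 1 with antisense 2 and wild type 2 with antisense 1, which was chosen after seeing the data.

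**Figure D1:**
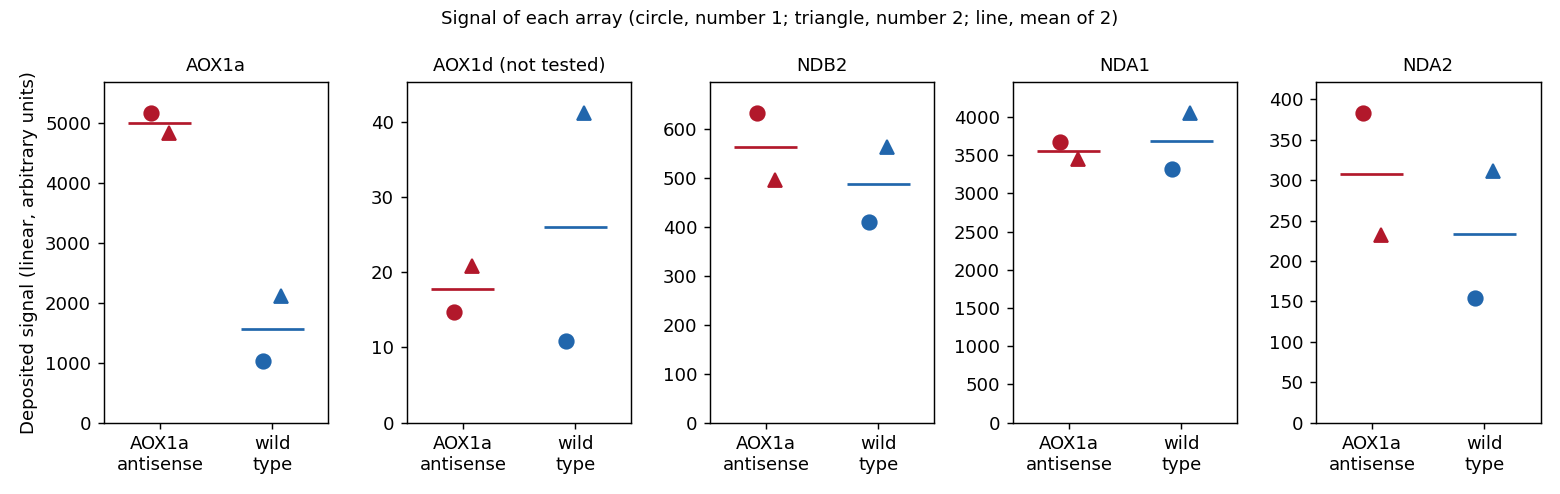
Deposited signal (linear axis from 0, own scale per gene) of the 5 members on each array, with the AOX1a antisense arrays left and the wild-type arrays right in each panel; circles are arrays numbered 1, triangles arrays numbered 2 and lines the mean of 2 arrays. The antisense-labelled arrays lie above the wild-type arrays for AOX1a, at 5163.8 and 4827.3 against 1022.7 and 2115.3, and the groups overlap for the other 4.

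Set against the whole array, AOX1a was among the probe sets with the widest gaps. It was 1 of 21 probe sets (0.154% of those tested) that were at least 2-fold higher in all 4 pairs of arrays. A lower cut had been planned, and the share at that cut was not computed. The cut used lies near the 2.28-fold of AOX1a's own closest pair, so the share is descriptive. By mean log2 difference AOX1a ranked 25th from the highest, and by the gap between the lower antisense-labelled array and the higher wild-type array it ranked 12th. By unadjusted p it ranked 21st in either direction. No probe set of the 13648 passed an adjusted p of 0.05 in limma (0%), while 230 were higher (1.69%) and 149 lower (1.09%) at an unadjusted p of 0.05. The median log2 difference of all tested probe sets was -0.03.

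The error of AOX1a lay on the wild-type side. Wild type 2 read 2.07-fold above wild type 1, and 2.03% of tested probe sets had wild-type arrays as far apart or farther. The antisense-labelled arrays differed by 1.07-fold, and 80.8% of probe sets had a gap as wide or wider there. Without wild type 1 the difference was 2.36-fold, and without wild type 2 it was 4.88-fold.

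The 4 arrays can be divided 2 against 2 in 3 ways, and AOX1a separated the labelled genotypes. Between the arrays numbered 2 and those numbered 1 its log2 difference was 0.48. Between the pair of wild type 2 and antisense 1 and the pair of wild type 1 and antisense 2 it was 0.57. The groups overlapped under both of these divisions, and both differences were below the 1.76 between the labelled genotypes. These values are descriptions of 4 arrays, and an exact permutation test of 2 against 2 cannot reach 0.05, since its smallest two-sided p is 2 of 6 possible assignments.

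AOX1d, the other alternative oxidase, is known as an isoform that is low in unstressed leaves and rises under stress and in plants lacking AOX1a. It was dim on all arrays, at 14.7 in antisense 1 and 20.8 in antisense 2, against 10.8 in wild type 1 and 41.1 in wild type 2. The wild-type arrays held both the lowest and the highest value, so the groups overlapped. Its mean log2 level fell among the lowest 40% of probe sets, which were left out of the fit, and it was the only member not tested. Its log2 difference was -0.27, which turned to 0.70 without wild type 2, and no direction is read from it. With no filter limma gave it an adjusted p of 1.0. AOX1b, another oxidase gene, is the protein-coding gene directly before AOX1a in the RefSeq annotation. The probe set of AOX1b was not identified here.

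NDB2 encodes a dehydrogenase on the outer face of the inner membrane that oxidises cytosolic NADH. It read 632.5 in antisense 1 and 495.6 in antisense 2, against 410.2 in wild type 1 and 563.8 in wild type 2. The highest and the lowest array belonged to different genotypes, but the other two lay in the reverse order, so the groups overlapped. NDB2 averaged 564.1 ± 96.8 on the antisense-labelled arrays and 487.0 ± 109 on the wild-type arrays (signal, SD, n = 2 each). The log2 difference was 0.22, with a 95% interval of -0.37 to 0.81 and an adjusted p of 1.0 in limma. A change of 1.75-fold upward or of 1.29-fold downward would lie within that interval. Without wild type 1 the sign turned, at -0.010.

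NDA1 and NDA2 encode dehydrogenases on the matrix side of the inner membrane, and NDA1 is known as the light-responsive member of the family. NDA1 read 3667.5 in antisense 1 and 3455.0 in antisense 2, against 3317.0 in wild type 1 and 4048.6 in wild type 2. Both antisense-labelled values lay between the wild-type values. NDA1 averaged 3561 ± 150.3 on the antisense-labelled arrays and 3683 ± 517 on the wild-type arrays (signal, SD, n = 2 each). Its log2 difference of -0.04 was the smallest in size of the 4 tested members, with a 95% interval of -0.47 to 0.39 and an adjusted p of 1.0 in limma. Its sign turned without antisense 2 (0.0011) and without wild type 2 (0.10).

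NDA2 varied more widely between arrays. It read 382.8 in antisense 1 and 232.3 in antisense 2, against 154.8 in wild type 1 and 311.3 in wild type 2. Wild type 2 lay between the antisense-labelled arrays, and only wild type 1 was below both. NDA2 averaged 307.6 ± 106 on the antisense-labelled arrays and 233.1 ± 111 on the wild-type arrays (signal, SD, n = 2 each), a log2 difference of 0.44. The 95% interval ran from -0.53 to 1.41, the widest of the tested members, and the adjusted p was 1.0 in limma. Without wild type 1 the sign turned, at -0.062.

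**Figure D2:**
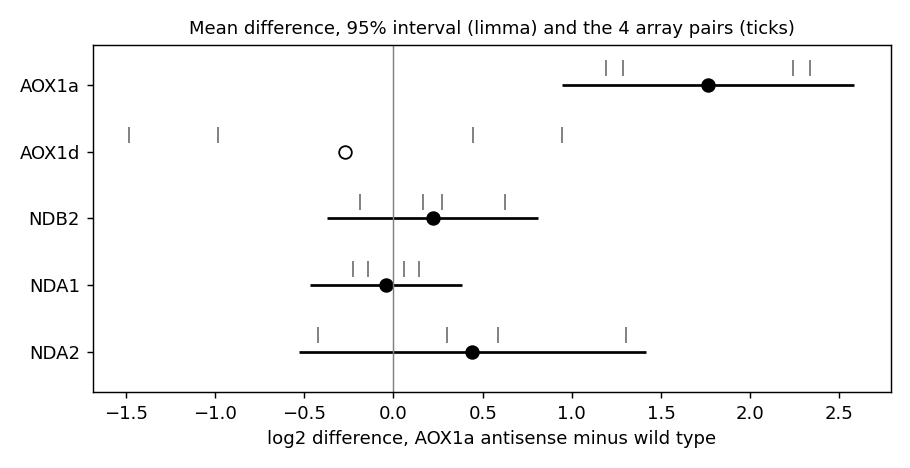
Log2 difference of AOX1a antisense minus wild type for the 5 members (horizontal axis), with filled circles for the mean difference, lines for the 95% interval from limma and grey ticks above for the 4 single pairs of arrays; AOX1d (open circle) was not tested and has no interval. The interval of AOX1a, 0.94 to 2.58, is the only one of the 4 that leaves out 0, before any correction for the number of probe sets.

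Of the 4 tested members, 0 passed the adjusted threshold in limma, and 1, AOX1a, had an unadjusted p under 0.05. AOX1a was also the 1 member of 4 that was higher without overlap of the groups, where 10.7% of all tested probe sets were. The median log2 difference of the 4 was 0.33, against -0.03 for all tested probe sets. Whether AOX1a and the dehydrogenases differed in their change was not tested. In whole leaves, a change in the number of cells with a transcript and a change in its amount per cell cannot be told apart.

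**Figure D3:**
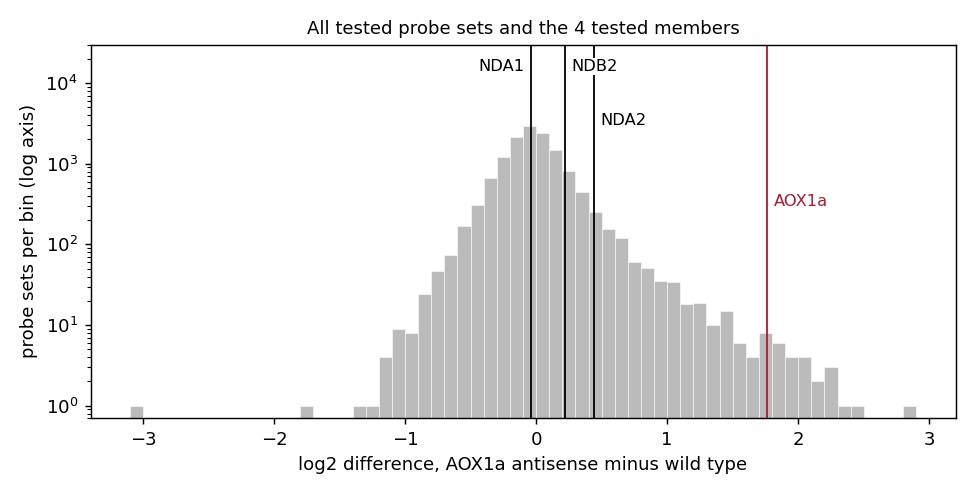
Number of the 13648 tested probe sets (vertical log axis) by log2 difference of AOX1a antisense minus wild type (horizontal axis, bins of equal width), with vertical lines at the 4 tested members. NDA1, NDB2 and NDA2 fall in the body of the distribution at -0.04, 0.22 and 0.44, and AOX1a lies in its upper tail at 1.76.

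The 3 dehydrogenases ordered the arrays in a way that crossed the genotypes. For each of them, antisense 1 and wild type 2 both lay above antisense 2 and wild type 1. This held for 3 of the 4 tested members, where it held for 27.9% of all tested probe sets. The fold between these pairs of arrays was 1.82 for NDA2, 1.32 for NDB2 and 1.14 for NDA1. AOX1a had the same order within each genotype, with wild type 2 above wild type 1 and antisense 1 above antisense 2. That order within both genotypes was shared by all 4 tested members, and 36.3% of tested probe sets had it. Between the antisense-labelled arrays it rested on small gaps for AOX1a (1.07-fold) and NDA1 (1.06-fold). The gaps there were 1.28-fold for NDB2 and 1.65-fold for NDA2. The order of the AOX1d signals is not read, because all of them were dim.

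Some array measures followed the same crossed division, and as many followed the array numbers. The 9-plant pools were wild type 2 and antisense 1, while wild type 1 held 7 plants and antisense 2 held 8. The share of probe sets called present was 57.3% in antisense 1 and 56.2% in wild type 2, against 55.9% in antisense 2 and 55.5% in wild type 1. Of the 6 ratios between 3'-end and 5'-end signal, 3 were lower in wild type 2 and antisense 1. The first ubiquitin design, for example, read 3.45 in antisense 1 and 3.16 in wild type 2, against 3.82 in antisense 2 and 4.68 in wild type 1. The sheet's noise and background were higher, and its scale factor and the first actin and GAPDH ratios lower, in both arrays numbered 2. Background, for example, was 53.16 in antisense 2 and 51.81 in wild type 2, against 47.93 in antisense 1 and 48.58 in wild type 1. The part of any of these measures in the members' order was not tested. The manufacturing lot was the same for all 4 arrays.

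**Figure D4:**
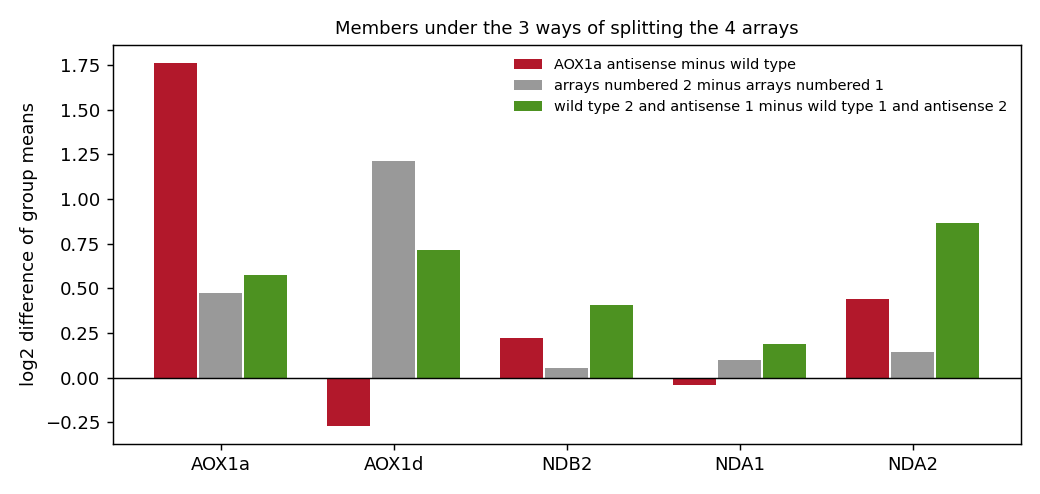
Log2 difference of group means (vertical axis from 0) of each member under the 3 ways of dividing the 4 arrays 2 against 2: AOX1a antisense minus wild type (red), arrays numbered 2 minus those numbered 1 (grey), and wild type 2 with antisense 1 minus wild type 1 with antisense 2 (green). The red bar is the tallest for AOX1a (1.76), the green bar for NDB2 (0.41), NDA1 (0.19) and NDA2 (0.86); the bars of AOX1d rest on dim signals of 10.8 to 41.1.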

How the data were processed

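The deposited intensity values are 1 linear signal per probe set and array, computed with MicroArray Suite 5.0, per the labels. Each array had been scaled to 1 level, since its trimmed mean (2% cut from both ends) came to 500.05 on all 4. Such scaling hides a shift of all transcripts. The deposited quality sheet gives a score per array for noise, scale factor, background and percent present, per the file headers. No depth applies, and the number of arrays limits the precision. Signals were log2-transformed. Of 22746 probe sets without the 64 controls, the 40% with the lowest mean log2 over all arrays were left out. The other 13648 were fitted with limma 3.58.1 in R 4.3.3 (eBayes with intensity trend, 2 residual and 4.25 prior degrees of freedom), with Benjamini-Hochberg adjustment. The script was tested on simulated data. The rule for named genes was the 5 members. Lists of related respiratory genes, leaf markers and genes of like pattern had been planned, and were not analysed because no table used here pairs probe sets with genes. Members, lists and tests were chosen with earlier results of these data known. No genome build is given in the sources used here, so no coordinates are printed; gene order is from TAIR10.1. The alternatives were 3 other scalings, an offset, other filters and eBayes settings, a replicate block, leaving out probe sets that can bind several transcripts, and leaving out each array.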

Additional observations from a re-analysis of the deposited data

How the results depend on the processing

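With equal array numbers as a replicate block, AOX1a kept its log2 difference of 1.76 (adjusted p 1.0 in limma), and limma called 0 probe sets; the deviations of equal-numbered arrays correlated at -0.42 over probe sets, and nothing in the labels pairs them. A crossed pairing (wild type 1 with antisense 2), chosen after seeing the data, called 44 of 13648 probe sets, AOX1a (1.76) among them. Either block left fewer residual degrees of freedom than the 2 of the main fit. AOX1a stayed higher under all 15 alternatives, from 1.24 to 2.29 without 1 array. It missed the threshold in 14 of them. Against 0 calls, limma called 1 probe set at an adjusted p of 0.1, under quantile normalization, median scaling and cyclic loess, 2 with an offset of 8.1 before the log, and 0 to 5 without 1 array, where a lone array is assumed to vary like the others. No filter, a 60% filter, eBayes without a trend, robust eBayes and leaving out probe sets ending in _s_at or _x_at gave 0. Without 1 array the log2 difference ran from -0.010 to 0.45 for NDB2, from -0.19 to 0.10 for NDA1, from -0.062 to 0.95 for NDA2 and from -1.23 to 0.70 for AOX1d; the other alternatives turned no member's sign. The cause of these shifts was not tested. NDA2 falls below the 60% filter. The dim signal of AOX1d limits any reading of it.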
